A study of Homo sapiens with 4 samples.

Results

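The miRNAs encoded inside the HOX gene clusters were followed through small RNA libraries from a circHIPK3 pull-down. The 7 mature miRNAs named for this purpose, hsa-miR-10a-5p, hsa-miR-10a-3p, hsa-miR-10b-5p, hsa-miR-10b-3p, hsa-miR-196a-5p, hsa-miR-196b-5p and hsa-miR-615-3p (the species prefix is left out below), were all listed among the 2656 mature miRNAs of the deposited count table. They were named by their genomic position, with earlier results of these data known. The set leaves out 4 other arms of the same hairpins that the count table lists. Together they took 0.104% of miRNA reads in the input, 0.139% with EVEN probes, 0.0788% with ODD probes and 0.115% with LacZ probes.

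The libraries came from untreated RD cells, a human cell line established from an embryonal rhabdomyosarcoma, which is a childhood cancer of the skeletal muscle lineage. Biotinylated antisense probes were added to native cell lysate and recovered on streptavidin beads. The EVEN and the ODD probes are separate sets against exon 2 of HIPK3, the exon that forms the circular RNA circHIPK3, and the LacZ probes target a bacterial mRNA and served as control. Each of the 4 groups (input lysate, EVEN, ODD and LacZ) is 1 library from 1 biological replicate, so the differences below lack replicates and their counting intervals compare single libraries rather than conditions.

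HOX genes encode transcription factors that set position along the body axis, and several miRNA genes lie between or inside them and are often transcribed with them. A mature miRNA guides Argonaute proteins to RNAs that pair with its seed, bases 2 to 8 from its 5′ end, and the other arm of the hairpin, the passenger strand, is usually degraded. miR-196 is known for repressing HOX mRNAs, among them HOXB8, and miR-10 also targets HOX transcripts.

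The hairpins lie in the 4 human HOX clusters (RefSeq coordinates, GRCh38.p14; host genes from GENCODE release 29, which gives the same hairpin positions). MIR10A lies in the HOXB cluster on chromosome 17 at 48579838 to 48579947, minus strand, in an intron of HOXB3 and over an annotated exon of HOXB4. MIR10B lies in the HOXD cluster on chromosome 2 at 176150303 to 176150412, plus strand, in an intron of HOXD3 and 810 bp from HOXD4. miR-196a-5p has 2 genes of origin with the same mature sequence, MIR196A1 on chromosome 17 at 48632490 to 48632559, minus strand, in an intron of HOXB7, and MIR196A2 on chromosome 12 at 53991738 to 53991847, plus strand, in an intron of HOXC6. MIR196B lies on chromosome 7 at 27169480 to 27169563, minus strand, over an annotated exon of HOXA9, and MIR615 on chromosome 12 at 54033950 to 54034045, plus strand, in introns of HOXC4 and HOXC5.

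**Figure D1:**
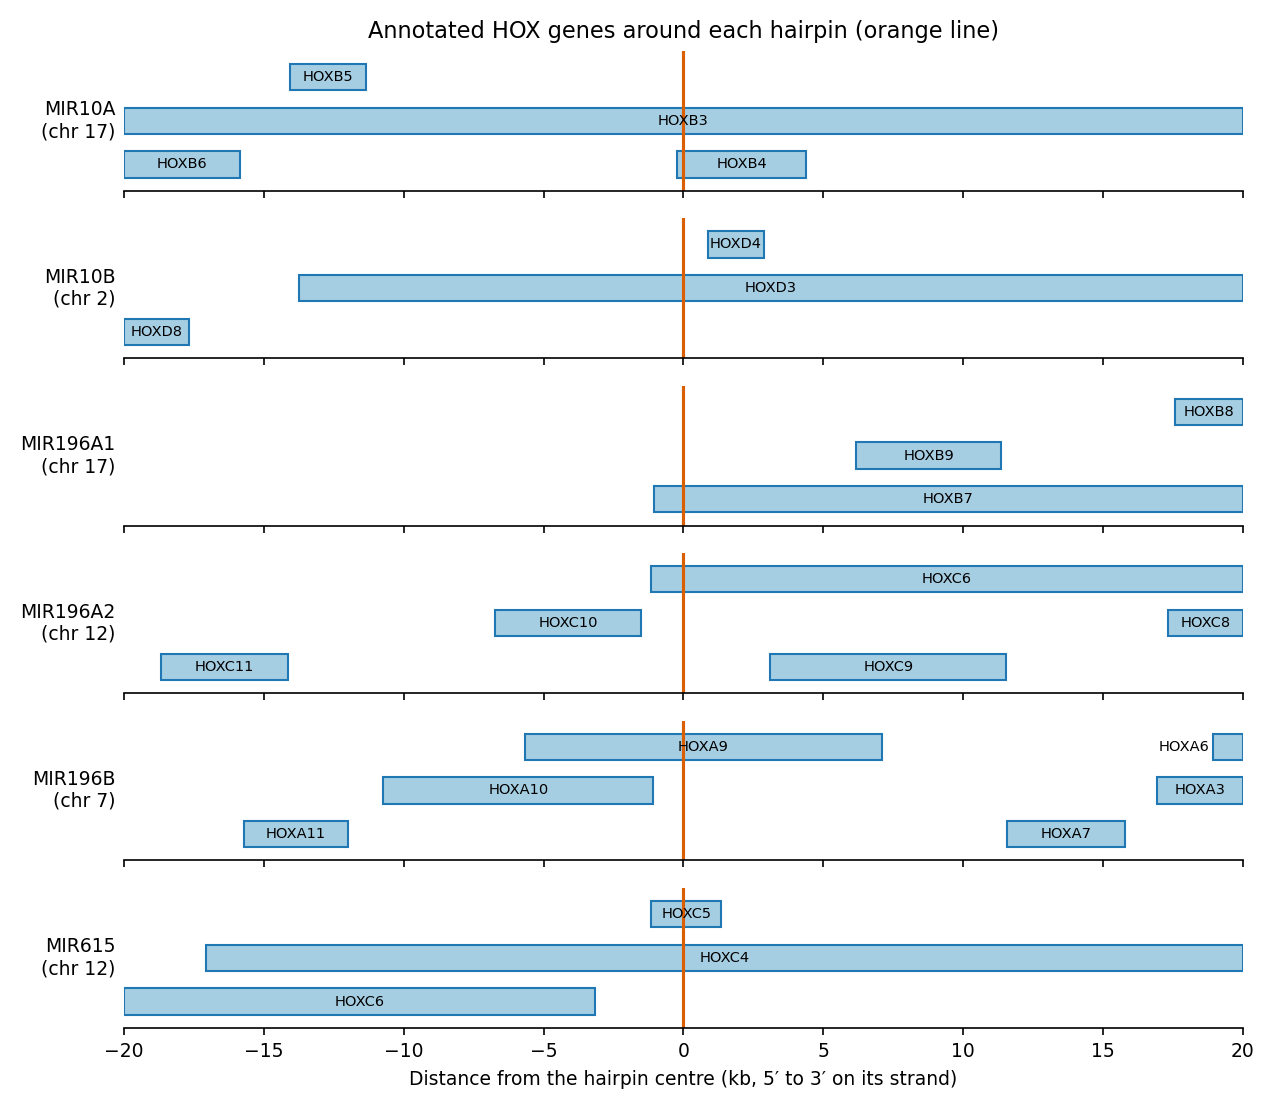
Position of annotated protein-coding HOX genes (blue bars) around each of the 6 hairpins (orange line), as distance from the hairpin centre in kb along the strand of the hairpin. Bars are clipped at 20 kb, and every hairpin lies within at least 1 HOX gene.

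RefSeq mature sequences were found for 6 of the 7 miRNAs, and those of the strands with more than 1 read in any library are shown because their seeds and their near-identity bear on the counts. Capitals mark the seed.
miR-10a-5p: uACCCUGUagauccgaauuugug
miR-196a-5p: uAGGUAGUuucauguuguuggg
miR-196b-5p: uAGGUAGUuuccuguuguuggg
miR-615-3p: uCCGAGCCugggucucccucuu

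The 2 miR-196 guides share the seed AGGUAGU and differ at 1 of 22 bases, A12C, counted from the 5′ end of miR-196a-5p. No other miRNA of the table with a sequence had that seed or the seed of miR-615-3p. miR-10b-5p was not among the sequences compared. Bases 2 to 8 of miR-196a-5p also occur in let-7, shifted by 1 base: the run AGGUAGU starts at base 3 of 8 of the 9 let-7 guide strands and miR-98-5p (let-7e-5p shares 6 bases). miR-615-3p is the richest in G and C, at 63.6%, against 40.9% for miR-196a-5p and 43.5% for miR-10a-5p.

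The circular exon was searched, junction included, for exact matches to the seeds of the 6 HOX cluster miRNAs with a sequence; miR-10b-5p was not searched. Exon 2 of HIPK3 (chromosome 11, 33286413 to 33287511, plus strand, GRCh38, 1099 nt) held 1 match to these 6, the 7 bases ACAGGGT complementary to bases 2 to 8 of miR-10a-5p. It lies at bases 1015 to 1021 of the exon, within its coding sequence, and is shown in capitals with its surroundings at chr11:33287416-33287445.
HIPK3 exon 2: tcggcagccttACAGGGTtaaagtaataga
Neither ACTACCT, complementary to the seed of both miR-196 guides, nor GGCTCGG, complementary to that of miR-615-3p, was found on the transcript strand, and the 3p arms of miR-10a and miR-10b (CGAATTT and GAATCTG) had no match either. Of the 2367 miRNAs of the table with a sequence, 175 (7.39%) had such a 7-base match in the exon. A match describes letters and is not a binding site. As miR-10b-5p was not searched, the match does not set miR-10a-5p apart from this paralogue.

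In the input, the order of levels in CPM (counts scaled to a common library size) was miR-196a-5p, miR-196b-5p, miR-615-3p, miR-10b-5p and miR-10a-5p. Levels of different miRNAs are shares of reads, and the efficiency of library construction can differ between sequences. miR-196a-5p had 2584 reads or 865 CPM (95% exact binomial interval 832 to 899), which placed it at rank 102 of all miRNAs. miR-196b-5p had 329 reads or 110.1 CPM (98.5 to 123), and miR-615-3p 155 reads or 51.9 CPM (44.0 to 60.7). The miR-10 guides were near the floor, with 35 reads for miR-10b-5p (11.7 CPM, 8.16 to 16.3) and 16 for miR-10a-5p (5.36 CPM, 3.06 to 8.70), and their intervals overlapped. All other neighbours in this order had separate intervals.

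Depth set what could be seen in the pull-downs. The input held 2987858 miRNA reads, EVEN 98950, ODD 426450 and LacZ 425395, so 0 reads allow up to 30.3 CPM in EVEN, 7.03 in ODD, 7.05 in LacZ and 1.00 in the input. All 4 muscle miRNAs checked had reads in every library, led by miR-206 at 32745 to 95311 CPM, and the neural miR-9-5p stood at 1374 to 10059 CPM. The neural miR-124-3p had at most 1 read and miR-122-5p of liver at most 11. The 3 blood cell miRNAs summed to 36.5, 152, 21.1 and 58.8 CPM in input, EVEN, ODD and LacZ, with miR-451a at 0 reads throughout and miR-142-3p at 131 CPM in EVEN on 13 reads. Of 2 epithelial miRNAs, miR-205-5p was at 1.34, 202, 832 and 489 CPM in that order, and miR-200c-3p at 30.1, 30.3, 23.4 and 37.6. Intervals and floors cover counting error only, and without collapsed molecular identifiers they would be too narrow.

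miR-10a-5p was high in the ODD library alone. It had 16, 1, 166 and 1 reads in input, EVEN, ODD and LacZ, which is 5.36, 10.1, 389 and 2.35 CPM. The ODD interval (332 to 453) lay above those of the other 3 libraries, which overlapped each other and reached at most 56.3 CPM, in EVEN. In ODD miR-10a-5p stood at rank 98, beside miR-196a-5p at rank 101 with 356 CPM (302 to 418), while in the input miR-196a-5p was far above it. It was 166-fold higher in ODD than in LacZ (29.3 to 6579), 72.7-fold higher than in the input (43.5 to 130.1) and 38.5-fold higher than in EVEN (6.82 to 1530.4). The folds against LacZ and EVEN rest on single reads there, and the one against the input rests on 16. With 5 added to each count the log2 ratio of EVEN to ODD went from -4.69 to -2.73, and that of ODD to the input ran from 4.56 with the reads of both miR-10 guides summed to 7.31 under median-of-ratios scaling (6.14 by totals). Of the epithelial miRNAs, miR-205-5p was also highest in ODD, within 2-fold of its LacZ level, and miR-200c-3p was not; their part in this result was not tested.

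miR-10b-5p, its paralogue, did not share this pattern. Its 35, 1, 7 and 9 reads in input, EVEN, ODD and LacZ were 11.7, 10.1, 16.4 and 21.2 CPM, and all 4 intervals overlapped. The ratio of ODD to LacZ was 0.776 (0.246 to 2.34). Within the miR-10 guides, miR-10a-5p took 96.0% of 173 reads in ODD (91.8 to 98.4), against 31.4% of 51 in the input (19.1 to 45.9), 10.0% of 10 in LacZ (0.253 to 44.5) and 50.0% of 2 in EVEN (1.26 to 98.7). This share does not depend on the library total. The odds of miR-10a-5p against miR-10b-5p were 50.0 times higher in ODD than in the input (18.4 to 156) and 191 times higher than in LacZ (22.1 to 9397). The sources used here do not say how reads that fit both paralogues were assigned. With the reads of both summed, the miR-10 guides were 17.3-fold higher in ODD than in LacZ (9.16 to 36.6) and 23.8-fold higher than in the input (17.3 to 33.2).

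**Figure D2:**
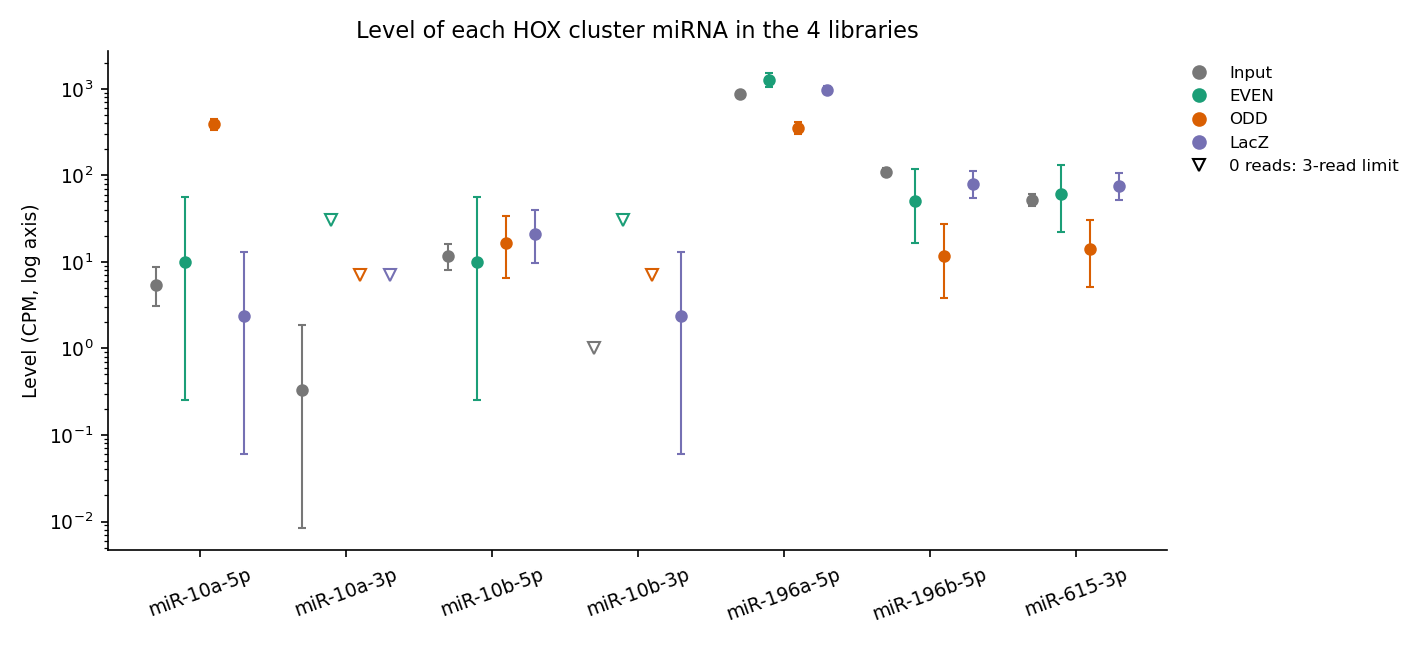
Level of each miRNA in CPM on a log axis in the 4 libraries, 1 point per library, with bars for the 95% exact binomial interval and open triangles for the level that 3 reads would give where no read was counted. miR-10a-5p reached 389 CPM in ODD and at most 10.1 CPM in the other libraries, whereas miR-196b-5p and miR-615-3p were lowest in ODD.

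The passenger strands had few reads, although miR-196a-3p, with 68 in the input, exceeded both miR-10 guides there. miR-10a-3p had 1 read, in the input, and 0 in the 3 pull-downs, so the 166 ODD reads of the hairpin were all of the 5p arm (at least 97.8% by the exact interval). miR-10b-3p had 1 read, in LacZ. Among the 4 other arms of these hairpins in the table, miR-196a-3p, made from MIR196A2, had 68, 0, 1 and 3 reads in input, EVEN, ODD and LacZ. miR-196b-3p had 2 reads in the input, miR-615-5p 1 in LacZ and miR-196a-1-3p none. miR-196a-5p was 97.4% of the reads of miR-196a-5p and miR-196a-3p in the input (96.8 to 98.0) and 99.3% in LacZ (97.9 to 99.9). The odds of the guide were 3.60 times higher in LacZ than in the input (1.17 to 18.0), and for ODD and EVEN the intervals of that ratio include 1.

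miR-196a-5p was the most abundant of the group in input, EVEN and LacZ. It stood at 865 CPM in the input (2584 reads), 1263 in EVEN (1052 to 1505), 356 in ODD (152 reads) and 966 in LacZ (411 reads, 875 to 1064). The EVEN and LacZ intervals overlapped at their edges, and the ODD interval lay below all others. The EVEN library held 1.31 times the LacZ share (1.06 to 1.60), and ODD lay 2.71-fold below LacZ (2.25 to 3.29). The ODD value is close to that of the typical miRNA: its log2 ratio of -1.44 compares with a median of -1.79 over all 300 tested miRNAs. Scaled by TMM factors it was -0.15, and by median-of-ratios size factors 0.01, so the decrease depends on the scaling. miR-196a-5p was 3.54-fold higher in EVEN than in ODD (2.77 to 4.52), a log2 ratio of 1.83 that was 0.80 with TMM factors.

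miR-196b-5p and miR-615-3p were lowest with ODD probes. miR-196b-5p had 329, 5, 5 and 34 reads in input, EVEN, ODD and LacZ, or 110.1, 50.5, 11.7 and 79.9 CPM. The ODD interval (3.81 to 27.4) lay below those of input and LacZ and overlapped that of EVEN (16.4 to 118). miR-615-3p, with 155, 6, 6 and 32 reads or 51.9, 60.6, 14.1 and 75.2 CPM, showed the same arrangement. Against LacZ, miR-196b-5p was 6.82-fold lower in ODD (2.65 to 22.3) and miR-615-3p 5.35-fold lower (2.21 to 15.6). Both log2 ratios, -2.65 and -2.33, stayed below 0 under TMM scaling (-1.36 and -1.04) and under median-of-ratios scaling (-1.20 and -0.88, the latter under 2-fold). Most miRNAs were lower there too, 70.3% of 300 by totals. The median of all tested was -1.79 by totals, -0.50 under TMM scaling and -0.35 under median-of-ratios scaling. In EVEN the ratios to LacZ were 0.632 for miR-196b-5p (0.193 to 1.62) and 0.806 for miR-615-3p (0.276 to 1.95), so a difference was not detectable at this depth.

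The 2 miR-196 guides were in unequal proportion across libraries. miR-196a-5p made up 88.7% of their 2913 reads in the input (87.5 to 89.8), 92.4% of 445 in LacZ (89.5 to 94.7), 96.2% of 130 in EVEN (91.3 to 98.7) and 96.8% of 157 in ODD (92.7 to 98.96). Relative to the input, the odds of miR-196a-5p against miR-196b-5p were 1.54 times higher in LacZ (1.06 to 2.29), 3.18 times in EVEN (1.31 to 10.0) and 3.87 times in ODD (1.60 to 12.2). Against LacZ the odds ratios were 2.07 for EVEN (0.781 to 6.91) and 2.51 for ODD (0.953 to 8.38), both with intervals that include 1. EVEN and ODD each rest on 5 reads of miR-196b-5p.

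**Figure D3:**
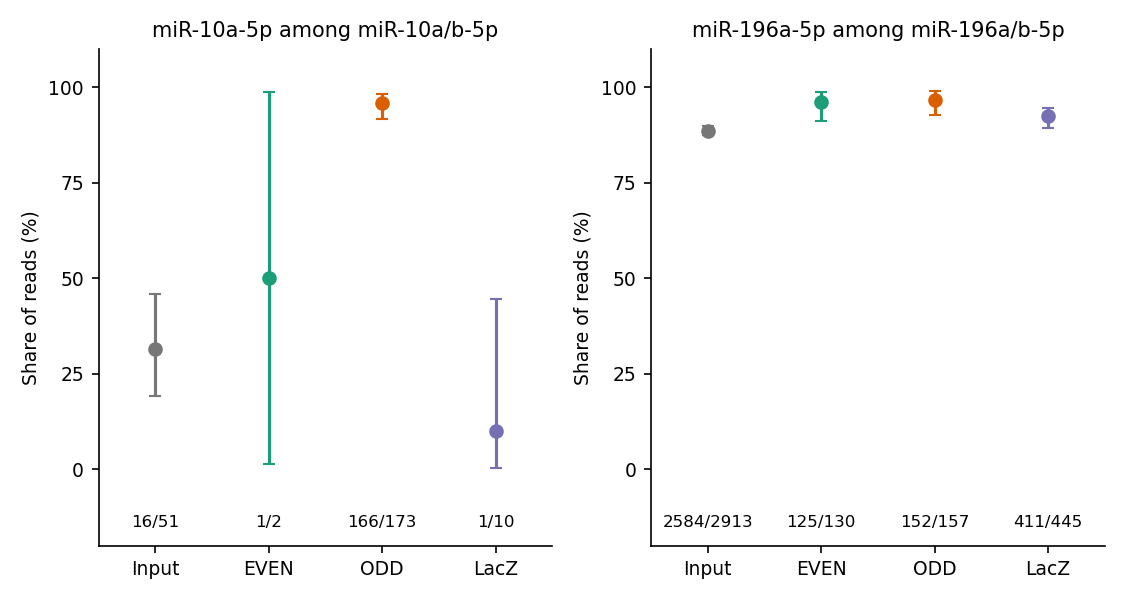
Share of miR-10a-5p among reads of miR-10a-5p and miR-10b-5p (left) and of miR-196a-5p among reads of miR-196a-5p and miR-196b-5p (right) in each library, in percent with 95% exact binomial intervals and the reads behind each share below. miR-10a-5p took 96.0% in ODD and 31.4% in the input, and miR-196a-5p 88.7% in the input and 96.8% in ODD.

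The group was then set beside all miRNAs in each comparison. A miRNA was tested where either library of a comparison held 20 or more of its reads, and called at a 2-fold ratio of shares after adding 0.5 to each count. In EVEN against LacZ, which asks what the EVEN probes recovered beyond control probes, 3 of the 7 were tested and 0 were called, where 60.9% of all 289 tested miRNAs were called. Their median log2 ratio was -0.22, against -1.06 for all tested.

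In ODD against LacZ 4 of the 7 were tested, 1 was higher and 3 lower, against 13.0% higher and 70.3% lower of 300. miR-10a-5p, at rank 3 from the top, met the minimum only through its ODD reads and so had to differ. miR-196b-5p (5 ODD and 34 LacZ reads) and miR-615-3p (6 and 32) met it only through LacZ, as in EVEN against LacZ. Their calls as lower are therefore descriptions as well. The median of the 4 was -1.88 against -1.79 for all. Both of these comparisons share the LacZ library. Over all miRNAs the split of 39 higher and 211 lower became 66 and 103 under TMM scaling, 68 and 96 under median-of-ratios scaling, and 55 and 160 when totals left out the 10 most abundant miRNAs.

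Between EVEN and ODD, only miR-10a-5p and miR-196a-5p had enough reads. The first was lower and the second higher with EVEN, where 18.2% of 203 miRNAs were lower and 37.9% higher. miR-10a-5p, with 1 EVEN read, met the minimum only through ODD, so its call is a description. That split of 77 higher and 37 lower turned to 20 and 64 under TMM scaling and to 19 and 64 under median-of-ratios scaling, where miR-196a-5p was no longer called.

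Relative to the input, 0 of 4 tested HOX cluster miRNAs were called with EVEN probes (70.5% of 464 miRNAs) and 0 of 4 with LacZ probes (52.4% of 475). Where the counting interval must also leave out 1, the calls over all miRNAs were 229 of 464 and 219 of 475. When totals left out the 10 most abundant miRNAs, 3 HOX cluster miRNAs were higher with EVEN probes, at log2 ratios of 1.08 to 1.30 (miR-10b-5p among them on 1 EVEN read). With ODD probes 1 of 5 was higher and 3 lower, beside 13.0% and 68.6% of 468. The higher one was miR-10a-5p, which with 16 input reads met the minimum only through ODD. Those lower were miR-196a-5p (2.43-fold, 2.06 to 2.88), miR-196b-5p (9.39-fold, 3.98 to 29.1) and miR-615-3p (3.69-fold, 1.66 to 10.2). With 5 and 6 ODD reads, miR-196b-5p and miR-615-3p met the minimum only through the input, so these calls are descriptions too. miR-10b-5p, at 1.40-fold (0.525 to 3.20), was under the threshold by library totals and above it under the 3 other scalings, with log2 ratios of 1.25 to 1.73. The call of miR-196a-5p as lower was lost under all 3 (-0.59 to -0.11). For miR-196b-5p the log2 ratio of -3.10 became -2.41 under TMM scaling and -1.93 under median-of-ratios scaling, and the call held. That of miR-615-3p was lost under median-of-ratios scaling (-0.60) and with totals that leave out the 10 most abundant miRNAs (-0.75). For LacZ the ratios to the input ran from 0.726 for miR-196b-5p (0.494 to 1.03) to 1.81 for miR-10b-5p (0.763 to 3.83) among the 4 tested.

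**Figure D4:**
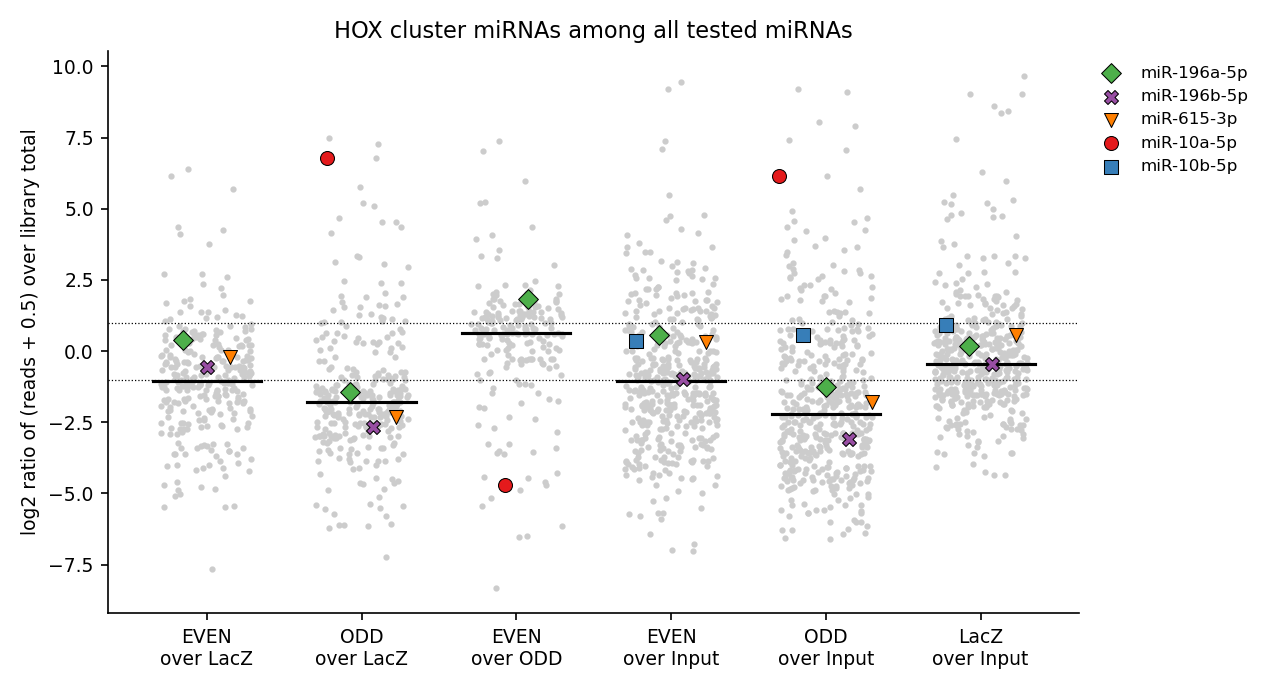
Log2 ratio of read shares, with 0.5 added to each count, in 6 comparisons. Grey points are all tested miRNAs, black bars their medians, dotted lines the 2-fold threshold and coloured symbols the tested HOX cluster miRNAs, of which miR-10a-5p lies at 6.79 in ODD over LacZ and at -4.69 in EVEN over ODD.

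The seed match of miR-10a-5p was read beside all miRNAs with a 7-base match in exon 2, miR-10a-5p included. Of the 23 tested in ODD against LacZ, 3 were higher (13.0%) and 20 lower (87.0%). miR-10a-5p is 1 of these 3 and met the minimum only through its ODD reads, so its call is a description. Of 254 with a sequence and no match, 35 were higher (13.8%) and 173 lower (68.1%). Of 21 tested in EVEN against LacZ, 0 were higher and 14 lower (66.7%), against 27 (11.0%) and 120 (48.8%) of 246 without a match. The difference between these shares was not tested. miR-10a-5p itself had 1 read in EVEN, whose interval of 0.256 to 56.3 CPM lies below its ODD level.

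Relatives by sequence were measured from the lists of miR-10 and miR-196 kin. miR-99a-5p, miR-99b-5p and miR-100-5p share the seed ACCCGUA, which has its first 4 bases in common with that of miR-10a-5p, and miR-125a-5p and miR-125b-5p are placed in the same wider family. Of these 5, 4 were tested in ODD against LacZ and all 4 were lower by library totals, as were 70.3% of all 300 tested. Their median log2 ratio was -2.09 beside -1.79 for all tested miRNAs. Under TMM and under median-of-ratios scaling 1 of the 4, miR-125a-5p, stayed past 2-fold, beside 103 and 96 lower of all 300. miR-99b-5p reached 0.12 under the latter. miR-99a-5p had 38 reads in ODD and 158 in LacZ, 0.240 times the LacZ share (0.164 to 0.344). That is the opposite direction to miR-10a-5p, but its log2 ratio of -2.05 lies near the median of all tested. miR-100-5p had 130, 0, 11 and 9 reads in input, EVEN, ODD and LacZ and a ratio of 1.22 (0.459 to 3.33). miR-99b-5p alone of the tested ones was above LacZ in EVEN, at 1.36-fold (1.27 to 1.44).

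The let-7 guide strands and miR-98-5p hold the shifted miR-196 seed, except let-7e-5p, which shares 6 bases of it and is counted with them below. Of 9 tested in ODD against LacZ, 2 were higher and 0 lower, beside 13.0% higher and 70.3% lower of all 300. Their log2 ratios ran from 0.10 to 1.54 with a median of 0.51, against -1.79 for all, while both miR-196 guides were lower by library totals (-1.44 and -2.65). These 9 took 50.9% of miRNA reads in ODD, 37.7% in EVEN and 32.0% in LacZ, a large part of the totals themselves. Under TMM scaling all 9 were higher, from 1.39 to 2.83, beside 66 of all 300, and the miR-196 guides stood at -0.15 and -1.36. In EVEN against LacZ 3 were higher and 1 lower, beside 28 and 148 of 289, with a median of 0.05 against -1.06. Under TMM scaling these counts were 4 and 0, beside 36 and 118.

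For each HOX cluster miRNA with at least 100 reads over the 4 libraries, the miRNAs of most similar profile were found by Euclidean distance over the 4 log2 shares, each centred on its own mean, among 338 others. Nearest to miR-10a-5p were miR-509-3-5p (distance 1.72), miR-184 (2.45) and miR-493-5p (2.50), where the median distance was 6.98. Their levels in ODD were 2300.4, 1043 and 218 CPM, and at most 44.8 CPM in any other library. miR-196a-5p had a much closer neighbour, miR-224-5p, at 0.16, with 2085, 3345, 830.1 and 2219 CPM in input, EVEN, ODD and LacZ, followed by miR-532-3p (0.37) and miR-181a-2-3p (0.43). miR-196b-5p was nearest to miR-143-3p (0.44), miR-589-3p (0.49) and miR-374b-5p (0.51), and miR-615-3p to miR-382-5p (0.26), miR-508-3p (0.35) and miR-500b-3p (0.42). With 4 libraries these distances only describe likeness.

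**Figure D5:**
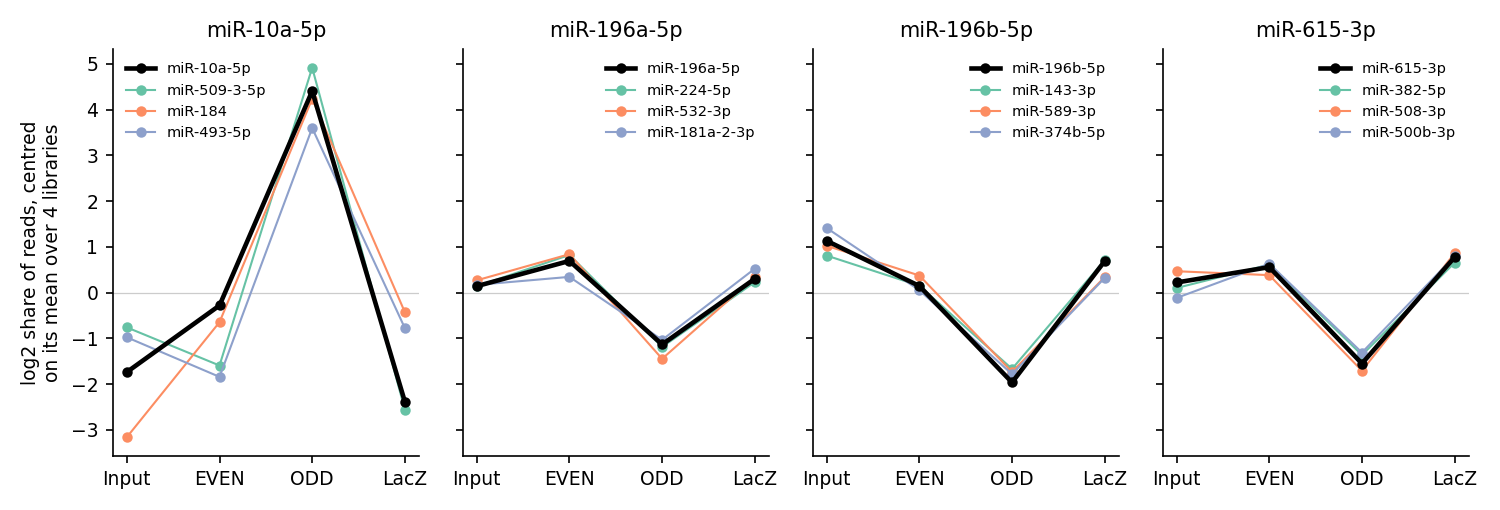
Log2 share of reads in each library, centred on the mean over the 4 libraries, for miR-10a-5p, miR-196a-5p, miR-196b-5p and miR-615-3p (black) and the 3 miRNAs nearest to each (coloured). The profile of miR-10a-5p and its neighbours peaks in ODD, and those of the other 3 are lowest there by library totals.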

How the data were processed

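The files deposited hold whole-number counts for each mature miRNA in 4 libraries, and the authors also deposited CPM, which equals each count over its library total to within rounding. Per the labels' protocols, the QIAseq miRNA kit was used and sequencing was single-end on a NovaSeq. The build is GRCh38, per the submitters' processing notes. Not given in the sources used here were trimming, aligner, miRNA annotation, strand, and how multi-mapping reads and molecular identifiers were handled.

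The titles put each library in a group of its own, so no test across replicates was possible. Folds are ratios of read shares with 95% exact conditional Clopper-Pearson intervals, shares within a library have exact binomial intervals, and odds ratios exact conditional ones. Ratios for calls had 0.5 added to each count. The miRNAs, lists and naming rule (every HOX cluster miRNA, the listed relatives, and the 3 nearest profiles) were chosen with earlier results of these data known. The split of calls by seed match and the sums over paralogues were added after the values were seen. Sequences come from RefSeq (GRCh38.p14), matching 2367 of 2656 miRNAs, and exon 2 from GENCODE release 29.

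Other scalings were TMM (edgeR 4.0.16), median-of-ratios (DESeq2 1.42.0) and totals that leave out the 10 most abundant miRNAs. Other choices were a minimum of 1 or of 100 reads, an added constant of 5, a 4-fold threshold, and a counting interval without 1. Python 3.11.15, scipy 1.17.1 and R 4.3.3 were used, and steps were tested on simulated data.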

Additional observations from a re-analysis of the deposited data

Results flagged for a closer look

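miR-196a-5p lay on opposite sides of LacZ in the 2 probe sets, with counting intervals that leave out equality in each: its ratio to LacZ was 1.31 with EVEN probes and 0.369 with ODD probes (1.06 to 1.60 and 0.304 to 0.445). Both ratios share the LacZ library, each rests on 1 library, and the difference was not tested across replicates. With median-of-ratios size factors the log2 ratio of ODD to LacZ was 0.01, so the opposite direction is not seen under that scaling.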

How the results depend on the processing

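No paired analysis was possible because each group is 1 library. For miR-196a-5p in ODD against LacZ the decrease by totals (log2 ratio -1.44) was not seen under median-of-ratios scaling, at 0.01. With TMM factors it was -0.15, and -0.74 when totals left out the 10 most abundant miRNAs (the cause was not tested). Counts of HOX cluster miRNAs past 2-fold were small. Moves of over 1.5 times are given here; besides these, ODD against LacZ and ODD against the input (4 each by totals) ranged from 3 to 5. With TMM factors they were 1 for EVEN against ODD (2 by totals) and 1 each for EVEN and LacZ against the input (0 by totals). Under median-of-ratios scaling they were 2 for ODD against LacZ (4 by totals) and 1 for EVEN against ODD. When totals left out the 10 most abundant miRNAs they were 3 for EVEN and 1 for LacZ against the input. At a minimum of 1 read they were 1 for EVEN against LacZ, 4 for EVEN against ODD, and 2 each for EVEN and LacZ against the input, and at 100 reads, where fewer miRNAs are tested, 2 for ODD against LacZ. With 5 added to each count they were 2 for EVEN and 1 for LacZ against the input. At 4-fold they were 1 for EVEN against ODD and 2 for ODD against the input (4 by totals). An added constant is a larger share of a smaller library. By it, miR-10a-3p counted as higher in EVEN than in the input on 0 and 1 reads (log2 ratio 3.33). With 5 added, the log2 ratio of miR-10b-5p in EVEN against the input, on 1 and 35 reads, went from 0.35 to 2.18. Where no construction is named, the cause was not tested. miR-10a-5p kept its direction in ODD against LacZ, the lowest log2 ratios being 4.83 with 5 added and 4.04 with paralogue reads summed, an alternative chosen after seeing the data. Of 105 single ratios under alternatives, 72 stayed within the counting interval of the main value.

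Over all tested miRNAs, the calls by totals of 176 (EVEN against LacZ), 250 (ODD against LacZ), 114 (EVEN against ODD), 327, 382 and 249 (EVEN, ODD and LacZ against the input) became 397, 672, 343, 919, 840 and 703 at a minimum of 1 read. Calls at a minimum of 1 read include ratios in which the added 0.5 weighs more in the smaller library. At 100 reads the calls were 95, 138, 69, 214 and 151 without ODD against the input, and at 4-fold 88, 157, 47, 199 and 100. ODD against LacZ gave 164 under median-of-ratios scaling. Against the input, splits of higher and lower calls moved with totals that leave out the 10 most abundant miRNAs, from 85 and 242 to 123 and 176 (EVEN), 61 and 321 to 102 and 243 (ODD) and 86 and 163 to 108 and 127 (LacZ). For LacZ they were 63 and 246 with TMM factors, for ODD 108 and 237 under median-of-ratios scaling, and for EVEN against LacZ 28 and 148 became 43 and 107. TMM factors moved the median log2 ratio of all miRNAs in ODD against LacZ from -1.79 to -0.50. EVEN, with 98950 reads, limits absence most.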
